A study of Homo sapiens with 8 samples.

Results

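The genes described here are 41 genes of glucose breakdown and of the hypoxia response, taken as a fixed list of symbols and found in the deposited table by Ensembl identifier. They fall into 23 glycolytic enzymes, glucose carriers and lactate carriers, and 18 other targets of the hypoxia-inducible factors, out of 58395 genes in the table. RNA came from AB8, a human cell line derived from podocytes, the glomerular epithelial cells of the kidney filter. Every library, the controls included, came from cells carrying pIND21_hCrb2+GFP_S267A, which by its name holds human CRB2 and GFP under an inducible promoter with the change S267A, at passages 3 to 8 after the modification. The non-induced group (4 libraries) had no doxycycline and the induced group (4 libraries) had doxycycline for 48 h, and both groups carry replicate numbers 1 to 4. The labels do not say whether the numbers stand for separate cultures, and the spread that the p-values measure may therefore be technical. No cells treated with doxycycline and lacking the construct were analysed here, so the drug, GFP, raised CRB2 and the S267A change cannot be told apart.

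Glycolysis splits glucose into pyruvate in the cytosol and yields ATP without oxygen. Glucose enters through SLC2A carriers, is trapped by hexokinase, is committed by phosphofructokinase, and leaves as lactate through SLC16A carriers once lactate dehydrogenase has reduced pyruvate. The hypoxia-inducible factors are transcription factors whose alpha subunits are hydroxylated by the oxygen-dependent EGLN enzymes, bound by VHL and degraded. When oxygen is low they persist, pair with ARNT, bind DNA at the core letters ACGTG or GCGTG, and raise many glycolytic genes together with CA9, ADM, BNIP3, PDK1 and others. Podocytes are known to rely strongly on glycolysis for ATP in the foot processes.

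The libraries held 16829454 to 23081616 counted reads. CRB2, the gene of the construct, stood at 8.31 to 26.4 CPM (counts per 1000000 counted reads, with library totals scaled by TMM) in the non-induced libraries and at 1734 to 4599 CPM in the induced ones, with induced library 1 the lowest. Of 10 podocyte markers 6 were expressed enough to test, and NPHS1 had 3 reads in all. PODXL alone was called, higher with induction in the edgeR fit with the block described below (adjusted p = 0.035). It averaged only 2.64 CPM without and 3.72 CPM with induction, and DESeq2 with the block did not call it (adjusted p = 0.234). Endothelial and immune markers each summed to less than 4 CPM in every library, with KDR and EMCN at 0 reads and PTPRC at 1. Tubular and parietal markers summed to 616 to 682 CPM without and 411 to 574 CPM with induction. Among 4 tested, PAX8 and CLDN1 were lower with induction and PAX2 was higher in the same fit, while LRP2 and UMOD had 0 reads. Of 3 tested mesangial markers PDGFRB was higher in that fit, and ITGA8 had 0 reads. Their part in the results below was not tested. In bulk RNA, fewer cells of a type and less RNA per cell cannot be told apart.

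Nearly all members stood slightly lower in induced cells, and the differences were small against the spread between libraries until same-numbered libraries were compared. Of 23 glycolysis members, 20 had a log2 fold change below 0 and so had 15 of 17 tested hypoxia members, against 49.8% of all 15637 tested genes. The median log2 change was -0.13 for glycolysis and -0.22 for the hypoxia members, against 0.00059 over all tested genes. In edgeR's quasi-likelihood test without a block, 0 members passed an adjusted p of 0.05 in either direction, where 0.00640% of all genes passed as lower and 0.0320% as higher. The members' adjusted p without a block ranged from 0.272 (PFKFB4) to 0.997 (PFKM). At an unadjusted p of 0.05, 5 glycolysis members and 6 hypoxia members were lower and 0 were higher, against 4.26% lower and 5.12% higher over all genes. DESeq2 without a block called PFKFB4, GAPDH and STC1 lower, against 0.844% of all genes.

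Libraries with the same number deviated together (correlations of 0.65 to 0.91 across genes), so each comparison is also given with the replicate number as a block. With it, 12 of 23 glycolysis members were lower and 1 was higher, and 5 of 17 hypoxia members were lower and 0 were higher. The background was 6.29% of all tested genes lower and 7.51% higher. DESeq2 with the block called 12 glycolysis members and 4 hypoxia members lower and 0 higher, against backgrounds of 3.43% and 3.65%. The 12 that were lower were PFKFB3, PFKFB4, SLC16A3, LDHA, HK1, ENO2, PFKP, PGK1, SLC16A1, TPI1, PGAM1 and GAPDH, and the one that was higher was PKM. The 5 hypoxia members that were lower were CA12, STC1, EGLN1, BNIP3 and PDK1. DESeq2 with the block called CA12, STC1, BNIP3 and P4HA2 instead, and neither EGLN1 nor PDK1. In edgeR the glycolysis count held between 9 and 12 whichever pair was left out. The hypoxia count was 10 without pair 1, 2 without pair 2, 3 without pair 3 and 1 without pair 4, so a single pair moved it by more than 1.5 times.

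**Figure D1:**
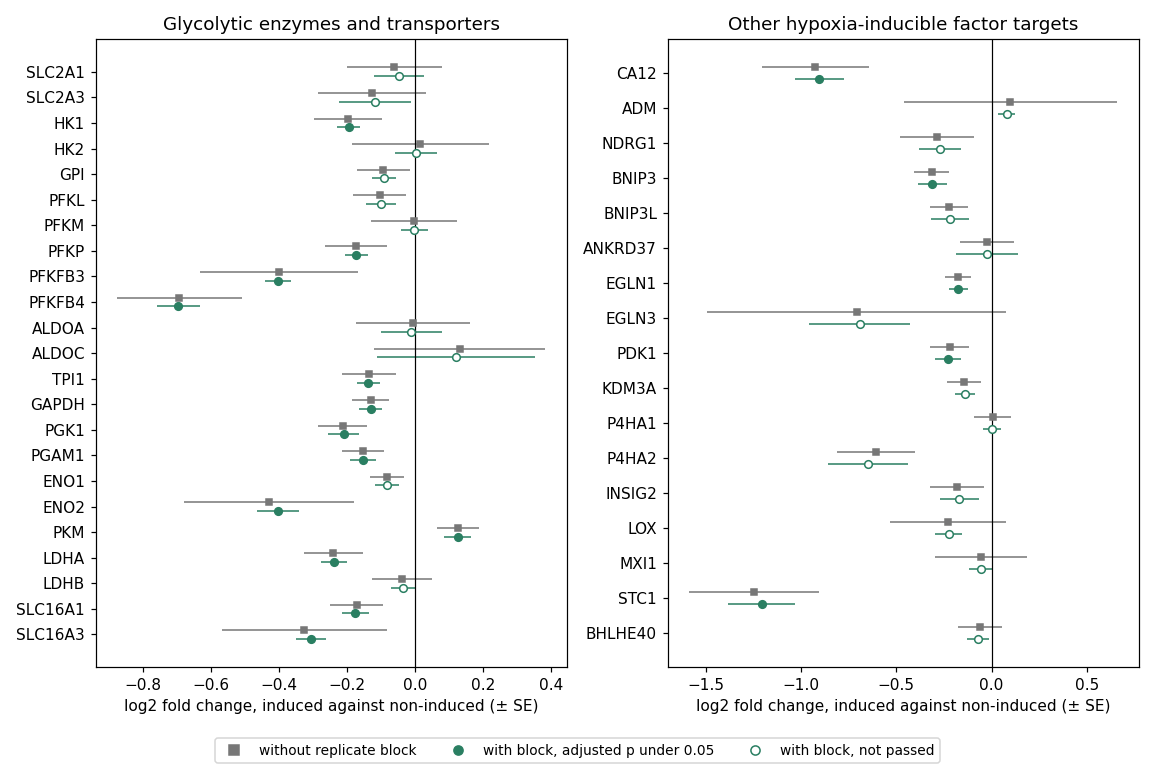
Log2 fold change of each tested member, induced against non-induced, with its standard error (bars), from edgeR fits without (grey squares) and with (green circles) the replicate block; 4 libraries per group. Filled circles passed an adjusted p of 0.05. Point estimates of both fits nearly coincide and the bars shorten with the block for most members; PKM is the one filled circle to the right of 0.

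Before the values, the letters that the hypoxia-inducible factors bind are shown for some of the members that were called. Whether the letters have a part in the differences was not tested. RefSeq promoters (GRCh38.p14) were matched by symbol for 36 of 41 members, and the 250 bases before each annotated start were searched for ACGTG and GCGTG on both strands, with overlapping matches joined. The letters occurred in 23 of 36 members (63.9%): 12 of 21 glycolysis members and 11 of 15 hypoxia members. Of all 27305 promoter windows of that length, 43.1% held them. The members' windows were also richer in G and C (median 68.4% against 58.0%), and many members are textbook targets, so the share is given as a description. Of 15 members lower with the block that had a window, 9 held the letters (60.0%). Capitals mark the matches, CACGT and CACGC being the same letters on the other strand. Each line runs 5′ to 3′ on the gene's strand:
PFKFB3, chr10:6144671-6144920, plus strand, the whole window: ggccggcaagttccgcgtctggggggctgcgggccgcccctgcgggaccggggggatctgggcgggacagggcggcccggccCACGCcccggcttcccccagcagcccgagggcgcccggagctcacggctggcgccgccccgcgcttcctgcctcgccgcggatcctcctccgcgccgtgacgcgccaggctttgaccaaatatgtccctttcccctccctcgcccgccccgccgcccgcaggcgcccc
PFKFB4, chr3:48556945-48556974, minus strand: ggcatGCGTGgtcggaggccgggccccttt
LDHA, chr11:18394373-18394402, plus strand: cagcgCACGTGgagcagtctgccggtcggt
LDHA, chr11:18394471-18394500, plus strand: actcaCACGTGggttcccgCACGTccgccg
CA12, chr15:63382056-63382085, minus strand: tcaccCACGCctgccagcagctcctcggag
EGLN1, chr1:231422288-231422317, minus strand: ccgcggggccgtggtgtACGTGcagagcgc
LDHA held 3 matches, of which CACGTG at 185 and at 87 bases before the start reads the same on both strands, and a CACGT at 73 bases. PFKFB3, PFKFB4 and CA12 held 1 match each, of the GCGTG form, at 168, 166 and 234 bases. EGLN1 held an ACGTG at 13 bases. SLC16A3, also among the members called, had no match in these 250 bases. These starts are 1 RefSeq start per gene, and other annotated transcripts can begin further upstream. In GENCODE 29, annotated exons cover all 250 window bases of EGLN1 and of CA12, 175 of LDHA, 155 of PFKFB4, 38 of SLC16A3 and 0 of PFKFB3, so much of what is shown can itself be transcribed.

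The levels of the glycolytic genes spanned several orders of magnitude. On a per-length scale (RPKM, the CPM divided by annotated exon length in kilobases), GAPDH was highest in non-induced cells at 1546 (libraries 1532 to 1581), followed by enolase ENO1 at 549 (539 to 561). LDHB (334, 308 to 384), the pyruvate kinase gene PKM (278, 268 to 294), the isomerase TPI1 (245, 223 to 262) and LDHA (224, 196 to 244) came next. The ranges of ENO1 and GAPDH did not overlap each other or these 4. LDHB lay above the other 3, whereas the ranges of TPI1 and LDHA overlapped. Within families, HK1 (33.9) stood above HK2 (5.96), SLC2A1 (48.4) above SLC2A3 (1.91), and PFKP (88.1) above the liver and muscle forms PFKL (14.9) and PFKM (12.2). Neuronal enolase ENO2 was at 29.3 RPKM. Aldolase was listed low, ALDOA at 2.00 and ALDOC at 0.370 RPKM. ALDOA shares 1657 of its 3916 exon bases with a same-strand gene model, AC093512.2, and how reads in both were counted is not given, so its level cannot be read from this table.

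The hypoxia targets were expressed less. The vasodilator peptide gene ADM had the highest non-induced mean at 34.0 RPKM, although library 1 stood at 9.77, followed by the prolyl hydroxylase subunits of collagen, P4HA2 (27.9) and P4HA1 (26.2). The mitophagy receptors BNIP3L and BNIP3 stood at 21.1 and 16.3 RPKM. Carbonic anhydrase CA9, a classical reporter of hypoxia, had 21 reads over all 8 libraries and was the only member that did not reach the filter for testing. It stood at 0.149, 0.187, 0.233 and 0.120 CPM without and at 0.203, 0.0875, 0.0476 and 0 CPM with induction, libraries 1 to 4 in order, where 3 reads correspond to 0.131 to 0.179 CPM. CA9 was therefore at the limit of detection in these cells, and 643 of its 1670 exon bases overlap ARHGEF39 on the other strand. EGLN3, another strongly hypoxia-inducible gene, had 140 reads in all.

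**Figure D2:**
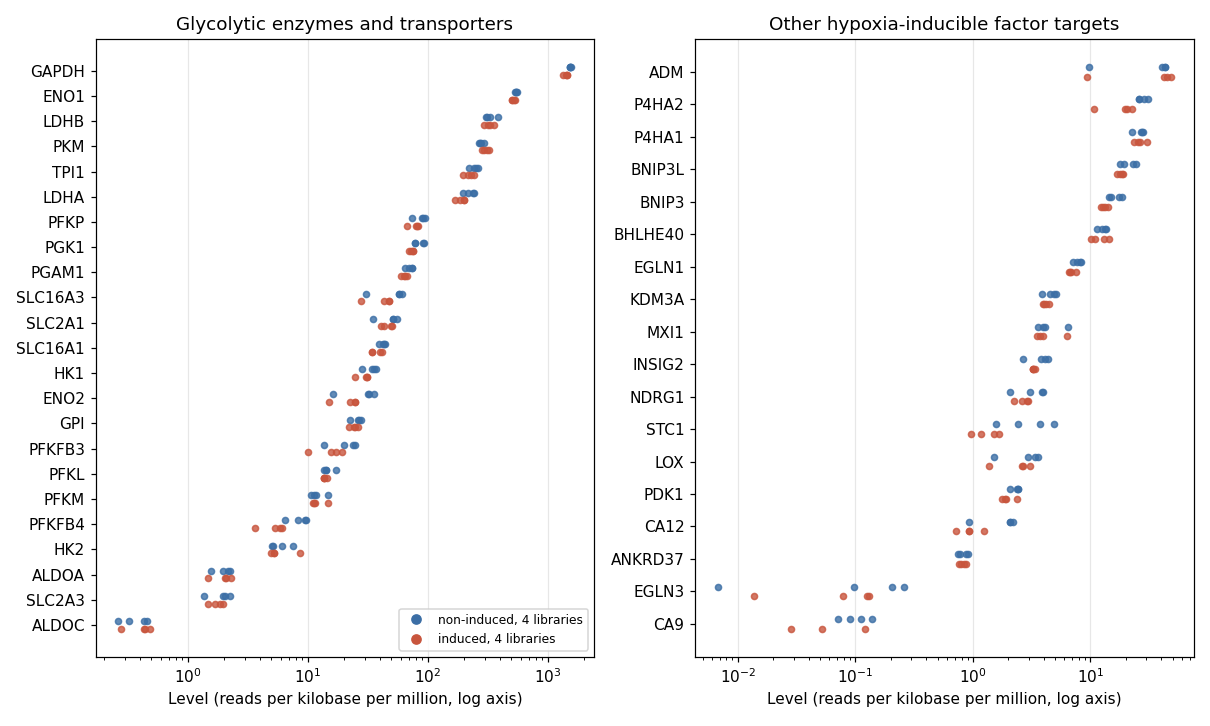
Level of each member in RPKM (log axis), one point per library, blue for the 4 non-induced and red for the 4 induced libraries, ordered by the non-induced mean. GAPDH leads the glycolytic genes and ADM the other targets; CA9 had 0 reads in induced library 4, which has no point, and library 1 lies apart for ADM and EGLN3.

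Gene positions below are those of GENCODE 29 on build GRCh38. For single genes, log2 changes, SE and adjusted p below are those of the fit with the block unless another fit is named. In the main comparison without a block no member passed, the lowest edgeR adjusted p being 0.272 (PFKFB4). Neither of the carriers that bring glucose in passed the test. SLC2A1, the main glucose carrier of most cultured cells (ENSG00000117394, chromosome 1, 42925375 to 42959176, minus strand), stood at 166, 242, 265 and 241 CPM without and at 194, 207, 235 and 241 CPM with induction, libraries 1 to 4 in order. The groups overlapped, with the lowest value in non-induced library 1, and with the block it differed by -0.047 (SE 0.073, edgeR adjusted p = 0.729) on the log2 scale. Its log2 ratios in pairs 1 to 4 were 0.23, -0.23, -0.17 and -0.0043, higher in pair 1, lower in pairs 2 and 3 and level in pair 4. The high-affinity carrier SLC2A3 differed by -0.12 on the log2 scale (adjusted p = 0.517) and was lower in 2 of 4 pairs.

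The trapping and committing steps were partly lower. HK1, the housekeeping hexokinase (ENSG00000156515, chromosome 10, 69269984 to 69401884, plus strand), stood at 179.7, 223, 234 and 216 CPM without and 158, 198, 196 and 193 CPM with induction, in library order. Each induced library lay below its partner although the groups overlapped. HK1 had a log2 change of -0.20 (SE 0.035, edgeR adjusted p = 0.00242) with the block, and did not pass without it (edgeR adjusted p = 0.608). HK2, the hexokinase that hypoxia raises, stood at 45.7, 31.4, 37.1 and 30.4 CPM and 52.1, 32.1, 31.8 and 30.3 CPM and did not pass (log2 change 0.0027, SE 0.061, edgeR adjusted p = 0.984), with the highest value of both groups in library 1. PFKP, the platelet form of phosphofructokinase (ENSG00000067057, chromosome 10, 3066333 to 3137712, plus strand), stood at 362, 444, 461 and 437 CPM and 328, 389, 401 and 392 CPM. PFKP was lower in 4 of 4 pairs by similar amounts, log2 ratios of -0.14, -0.19, -0.20 and -0.16, and had a log2 change of -0.17 (SE 0.033, edgeR adjusted p = 0.00394). The isomerase GPI and the forms PFKL and PFKM differed by -0.092, -0.10 and -0.0025 on the log2 scale, short of the threshold (adjusted p 0.0969, 0.144 and 0.978).

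The largest difference among glycolysis members was that of PFKFB4, a regulator of phosphofructokinase. PFKFB3 and PFKFB4 encode enzymes with a kinase and a phosphatase domain that make and remove the small sugar phosphate that activates that step. PFKFB4 (ENSG00000114268, chromosome 3, 48517684 to 48562015, minus strand) stood at 39.5, 50.9, 58.4 and 58.9 CPM without and at 22.1, 37.3, 36.1 and 32.7 CPM with induction, libraries 1 to 4 in order. Every induced library lay below every non-induced one. Its log2 change was -0.69 (SE 0.18, edgeR adjusted p = 0.272) without and -0.70 (SE 0.063, edgeR adjusted p = 3.89e-05) with the block, or 0.617 times the non-induced level. PFKFB4 passed under all 11 alternatives tried with the block, and without both libraries numbered 1 and no block its log2 change was -0.67 (adjusted p = 4.96e-04). PFKFB4 shares 289 exon bases with UCN2, a urocortin gene on the same strand, which was lower by a similar amount (log2 change -0.64, edgeR adjusted p = 0.0257 with the block). The strand and overlap settings of the counting are not given, so reads at that end may belong to either gene.

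PFKFB3, the isoform with the strongest kinase activity (ENSG00000170525, chromosome 10, 6144934 to 6254644, plus strand), stood at 83.6, 151, 145 and 124 CPM without and at 61.8, 119, 105 and 95.6 CPM with induction. Library 1 was the lowest of both groups, and the groups overlapped. The drop was nearly the same in each pair, with log2 ratios of -0.43, -0.34, -0.47 and -0.37, which gave a log2 change of -0.40 (SE 0.039, edgeR adjusted p = 2.32e-05) with the block against -0.40 (SE 0.23, edgeR adjusted p = 0.672) without it. PFKFB3 passed under all 11 alternatives with the block. PFKFB2, the heart form and no member of the list, was in contrast higher in 4 of 4 pairs, at 26.9 ± 5.08 CPM without and 34.0 ± 5.60 CPM with induction (SD, n = 4), a log2 change of 0.34 (SE 0.057, edgeR adjusted p = 0.00172).

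The later enzymes of the pathway were lower by small amounts. TPI1 (ENSG00000111669, chromosome 12, 6867119 to 6870948, plus strand), which interconverts the triose phosphates, stood at 602, 661, 678 and 706 CPM and 532, 589, 623 and 664 CPM. TPI1 was lower in 4 of 4 pairs (log2 change -0.14, SE 0.034, edgeR adjusted p = 0.0146) and missed the threshold without pair 2 or 3 (adjusted p 0.0572 and 0.0654). GAPDH, the dehydrogenase of the pathway and a gene often used as a reference (ENSG00000111640, chromosome 12, 6533927 to 6538374, plus strand), stood at 4581, 4568, 4714 and 4571 CPM and 4228, 4012, 4303 and 4292 CPM. Its groups did not overlap, and it had a log2 change of -0.13 (SE 0.033, edgeR adjusted p = 0.017), 0.913 times the non-induced level, missing the threshold without pair 2 or 3 (adjusted p 0.0767 and 0.0908). PGK1, the first ATP-yielding kinase (ENSG00000102144, chromosome X, 77910739 to 78129296, plus strand), stood at 433, 504, 515 and 432 CPM and 386, 400.1, 419 and 419 CPM. Its groups did not overlap either, and with a log2 change of -0.21 (SE 0.045, edgeR adjusted p = 0.00861) it passed whichever pair was left out.

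PGAM1, the phosphoglycerate mutase (ENSG00000171314, chromosome 10, 97426160 to 97433441, plus strand), stood at 167, 192, 189 and 181 CPM and 154, 162, 167 and 172 CPM. PGAM1 had a log2 change of -0.15 (SE 0.038, edgeR adjusted p = 0.0158) and missed the threshold without pair 2 or 3 (adjusted p 0.0756 and 0.086). ENO2 (ENSG00000111674, chromosome 12, 6913745 to 6923698, plus strand) stood at 70.1, 139.9, 154 and 138 CPM and 64.1, 106, 106 and 96.6 CPM, and library 1 was far the lowest of each group. ENO2 differed less in pair 1 (log2 ratio -0.13) than in pairs 2 to 4 (-0.41, -0.54 and -0.51), and had a log2 change of -0.40 (SE 0.061, edgeR adjusted p = 0.00242). The main enolase ENO1 was lower in 4 of 4 pairs and its groups did not overlap, yet it did not pass (log2 change -0.084, SE 0.035, edgeR adjusted p = 0.127). ALDOA and ALDOC differed by -0.012 and 0.12 on the log2 scale (adjusted p 0.951 and 0.781).

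PKM, which encodes the last enzyme of the pathway, was the one member that was higher. PKM (ENSG00000067225, chromosome 15, 72199029 to 72231822, minus strand) stood at 2520.0, 2296, 2390.0 and 2344 CPM without and at 2544, 2423, 2684 and 2764 CPM with induction, libraries 1 to 4 in order. The groups overlapped, and it was higher in 4 of 4 pairs by log2 ratios of 0.014, 0.078, 0.17 and 0.24. Its log2 change of 0.12 (SE 0.039, edgeR adjusted p = 0.0477) lay close to the threshold and passed under 5 of 11 alternatives: DESeq2 with the block gave 0.0824 and leaving out pair 2, 3 or 4 gave 0.0614, 0.238 and 0.289. Within a library PKM reads were 0.550, 0.503, 0.507 and 0.513 times GAPDH reads without induction and 0.602, 0.604, 0.624 and 0.644 times with it. These ratios did not overlap, but GAPDH was itself called lower, so they do not bear on PKM alone. Gene counts do not separate the PKM splice forms.

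At the exit of the pathway, lactate production and export genes were lower. LDHA (ENSG00000134333, chromosome 11, 18394388 to 18408425, plus strand), the lactate dehydrogenase subunit that favours lactate, stood at 1217, 1472, 1516 and 1347 CPM without and 1046, 1168, 1240.0 and 1242 CPM with induction. Only non-induced library 1 fell inside the induced range, and LDHA had a log2 change of -0.24 (SE 0.039, edgeR adjusted p = 0.00136), passing under all 11 alternatives with the block. LDHB, the subunit that favours pyruvate, did not pass (log2 change -0.037, SE 0.035, edgeR adjusted p = 0.534). The ratio of LDHA to LDHB reads was 1.06, 1.60, 1.63 and 1.36 without induction, in library order, and 0.985, 1.32, 1.31 and 1.25 with it. It was lower in 4 of 4 pairs and its groups overlapped.

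SLC16A3, the lactate exporter that hypoxia raises (ENSG00000141526, chromosome 17, 82228397 to 82261129, plus strand), stood at 276, 524, 551 and 522 CPM and 251, 426, 428 and 389 CPM. Both libraries numbered 1 were far below the others, and within pairs the log2 ratios were -0.14, -0.30, -0.36 and -0.43. SLC16A3 had a log2 change of -0.31 (SE 0.044, edgeR adjusted p = 6.69e-04) with the block against -0.33 (SE 0.24, edgeR adjusted p = 0.765) without it. SLC16A1, the carrier that moves lactate both ways (ENSG00000155380, chromosome 1, 112911847 to 112957013, minus strand), stood at 211, 231, 236 and 226 CPM and 182, 213, 224 and 184 CPM. SLC16A1 was lower in 4 of 4 pairs (log2 change -0.18, SE 0.040, edgeR adjusted p = 0.00976) and missed the threshold without pair 4 (adjusted p = 0.0637).

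**Figure D3:**
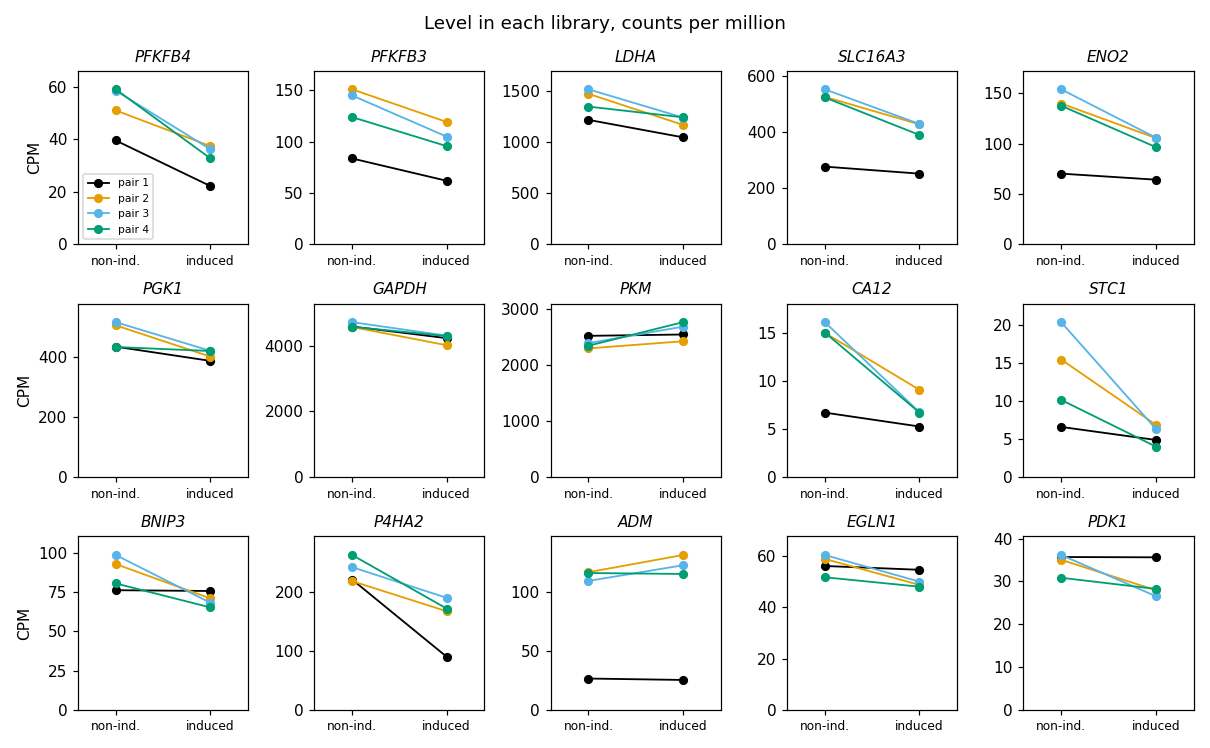
Level in CPM (axes from 0) of 15 members in each library; lines join same-numbered libraries, black for pair 1. PFKFB4, GAPDH, PGK1, BNIP3 and P4HA2 have induced values that all lie below the non-induced ones, PKM rises along each line, and pair 1 runs far below the others for SLC16A3, ENO2 and ADM.

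Read over the pathway, the glycolysis members together took 1.58% to 1.63% of a library's reads without induction and 1.44% to 1.53% with it. These ranges do not overlap, and most of these reads belong to GAPDH, ENO1 and PKM. Groups without overlap, induced below, were found for 4 of 23 glycolysis members (PFKFB4, GAPDH, PGK1 and ENO1) and 2 of 17 hypoxia members (BNIP3 and P4HA2), against 3.22% of all genes. None of either kind had all induced libraries above, against 3.82%. In glycolysis 15 members were lower in 4 of 4 pairs and 1 was higher, against 17.0% and 18.6% of all genes. The counts were similar in each pair: 19, 21, 18 and 19 of 23 glycolysis members were lower in pairs 1 to 4, against 48.7%, 49.3%, 50.0% and 49.3% of all genes.

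The hypoxia members outside glycolysis were less uniform. They were lower in 11, 15, 14 and 14 of 17 cases in pairs 1 to 4, against 48.7%, 49.3%, 50.0% and 49.3% of all tested genes. Their median log2 ratio was -0.04, -0.33, -0.33 and -0.13. Those for glycolysis were -0.14, -0.17, -0.16 and -0.07. In the hypoxia group 7 of 17 were lower in 4 of 4 pairs and 0 were higher in all, against 17.0% and 18.6% of all tested genes. Whether pair 1 differs from the others cannot be tested with 1 library of each kind.

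**Figure D4:**
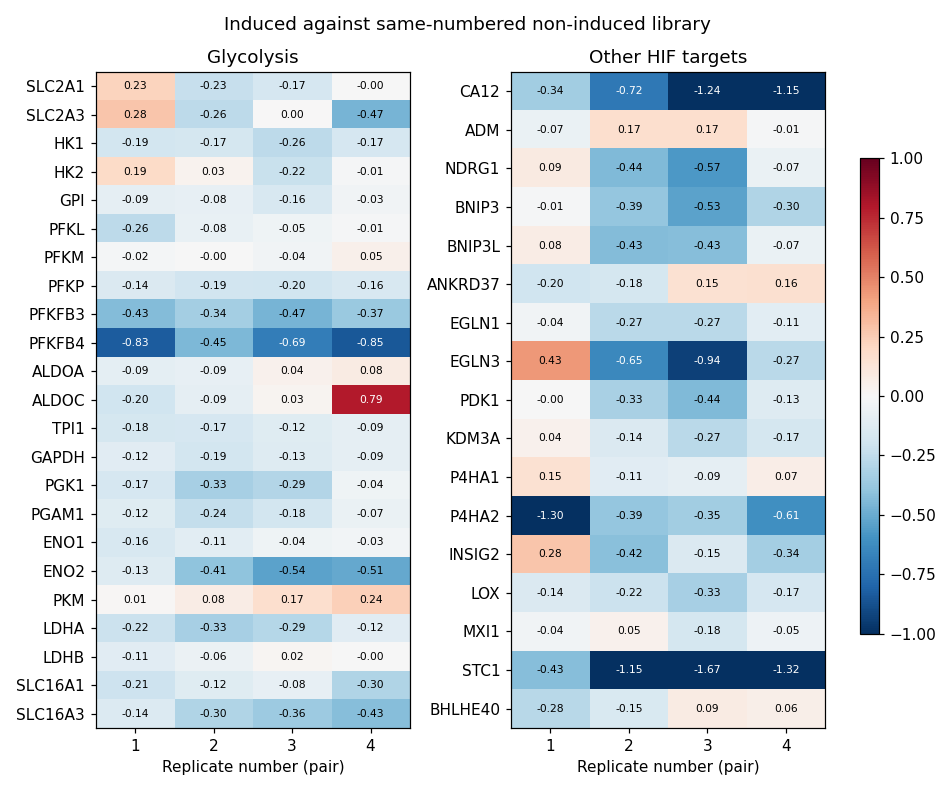
Log2 ratio of each tested member in the induced against the same-numbered non-induced library, with 1 column per pair; blue is lower and red is higher with induction, and colour stops at -1 and 1. Glycolysis is mostly pale blue in every column, with PKM pale red and ALDOC, a gene of few reads, at 0.79 in pair 4, while BNIP3, BNIP3L, NDRG1 and PDK1 are near 0 in pair 1 and blue in pairs 2 and 3.

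The 2 hypoxia targets with the largest differences encode secreted or surface proteins. STC1, a secreted glycoprotein hormone (ENSG00000159167, chromosome 8, 23841915 to 23854807, minus strand), stood at 6.57, 15.4, 20.3 and 10.1 CPM without and at 4.86, 6.87, 6.33 and 3.99 CPM with induction, libraries 1 to 4 in order. Only non-induced library 1 reached into the induced range. STC1 had a log2 change of -1.21 (SE 0.18, edgeR adjusted p = 0.00558), 0.433 times the non-induced level, and was lost without pair 4 (adjusted p = 0.0614). CA12, a membrane carbonic anhydrase that handles acid outside the cell (ENSG00000074410, chromosome 15, 63321378 to 63382161, minus strand), stood at 6.71, 15.0, 16.1 and 15.1 CPM and 5.26, 9.10, 6.76 and 6.72 CPM. Non-induced library 1 lay within the induced values and the other 3 above them, and CA12 had a log2 change of -0.90 (SE 0.13, edgeR adjusted p = 0.00173). CA12 passed under every alternative with the block in which it could be tested (10, the filter at 10 CPM leaving it out), and without both libraries numbered 1 and no block at -1.03 (adjusted p = 6.62e-04).

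BNIP3 and PDK1 act on mitochondria, the first in mitophagy and the second as a kinase that shuts pyruvate out of the citrate cycle. BNIP3 (ENSG00000176171, chromosome 10, 131966455 to 131982013, minus strand) stood at 76.2, 92.8, 98.5 and 80.5 CPM and 75.6, 70.9, 68.2 and 65.2 CPM. Its groups did not overlap, but pair 1 hardly differed (log2 ratio -0.010), and the log2 change of -0.31 (SE 0.078, edgeR adjusted p = 0.0386) was lost without pair 2 or 4 (adjusted p 0.133 and 0.183). PDK1 (ENSG00000152256, chromosome 2, 172555373 to 172608669, plus strand) stood at 35.7, 35.1, 36.2 and 30.9 CPM and 35.6, 28.0, 26.6 and 28.3 CPM. PDK1 too was level in pair 1 and lower in the other pairs. It had a log2 change of -0.23 (SE 0.068, edgeR adjusted p = 0.0432) and passed under 4 of 11 alternatives, with DESeq2 and the block giving 0.127. BNIP3L, the paralog of BNIP3, differed by -0.22 on the log2 scale, short of the threshold with the block (adjusted p = 0.239) and passed without pair 1 (0.0156).

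The oxygen-sensing hydroxylases were measured at very different depths. EGLN1, the main sensor and itself a target of the factors (ENSG00000135766, chromosome 1, 231363751 to 231425044, minus strand), stood at 56.2, 59.0, 60.5 and 51.8 CPM and 54.7, 48.8, 50.1 and 48.1 CPM. EGLN1 was lower in 4 of 4 pairs and had a log2 change of -0.17 (SE 0.050, edgeR adjusted p = 0.0311), lost without pair 2, 3 or 4 (adjusted p 0.116, 0.159 and 0.06). DESeq2 with the block did not call EGLN1 (adjusted p = 0.133). EGLN3 stood at 0.0497, 1.49, 1.91 and 0.718 CPM and 0.101, 0.919, 0.952 and 0.578 CPM, both libraries numbered 1 lying below the level of 3 reads. It did not pass (log2 change -0.69, SE 0.27, edgeR adjusted p = 0.1).

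P4HA2 (ENSG00000072682, chromosome 5, 132191838 to 132295315, minus strand) stood at 222, 219, 243 and 264 CPM without and 90.4, 168, 191 and 172 CPM with induction. Its groups did not overlap, and induced library 1 was by far the lowest. The size differed between pairs, with log2 ratios of -1.30, -0.39, -0.35 and -0.61, and it did not pass with the block (log2 change -0.65, SE 0.21, edgeR adjusted p = 0.172). It passed without pair 1 (adjusted p = 1.93e-04) and with DESeq2 and the block (0.0306). Its paralog P4HA1 differed by 0.0042 on the log2 scale (adjusted p = 0.968).

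ADM, among the strongest hypoxia responders in most cells (ENSG00000148926, chromosome 11, 10304680 to 10307397, plus strand), did not differ beyond the spread. It stood at 26.6, 117, 109.5 and 116 CPM without and 25.4, 132, 123 and 115 CPM with induction, with a log2 change of 0.079 (SE 0.047, edgeR adjusted p = 0.29). Library 1 of each group lay more than 4-fold below the others, so the difference between library numbers was far larger than that between the groups. The remaining members, NDRG1, ANKRD37, the histone demethylase KDM3A, the sterol regulator INSIG2, the collagen cross-linker LOX and the repressors MXI1 and BHLHE40, had log2 changes of -0.27 to -0.023. None passed (adjusted p 0.0529 to 0.945), LOX being the closest, and KDM3A, NDRG1 and INSIG2 passed without pair 1.

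Library 1 stood apart for many members in both groups. Library 1 was the lowest of its group for 13 of 23 glycolysis members without and 15 with induction, and for 10 and 7 of 17 hypoxia members. How often library 1 was lowest over all tested genes was not computed. Deviations from the group means correlated at 0.911 over 11502 genes between the libraries numbered 1, so the departure was not confined to these members. HK2, GPI, PFKL, PFKM, LDHB and MXI1 had, in contrast, their highest value of each group in library 1. The non-induced to induced difference was therefore also computed without both libraries numbered 1 and without a block, an alternative chosen after seeing the data. It called 6 glycolysis members lower (HK1, PFKP, PFKFB4, ENO2, LDHA and SLC16A3) and 6 hypoxia members (CA12, NDRG1, BNIP3, BNIP3L, PDK1 and P4HA2), and 0 higher, against 1.91% of all genes lower.

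Genes around these pathways, from lists drawn up for this purpose, did not share one direction. Of 23 other glycolysis genes 11 were tested, and with the block 2 were lower and 3 were higher, median log2 change 0.045. The background with the block was 6.29% of all tested genes lower and 7.51% higher. Beside PFKFB2, the higher ones were SLC16A7, a pyruvate and lactate carrier (0.33, adjusted p = 0.00739), and the hexokinase-domain gene HKDC1 (0.20, 0.00816). The lower ones, named after their values were seen, were muscle enolase ENO3 (-0.32) and SLC2A6 (-0.29). Of 28 tested further targets of the hypoxia-inducible factors, 7 were lower and 1 was higher with the block (25% of those tested lower), with a median of -0.09. Among the lower were the matrix enzymes LOXL2 (log2 change -0.29, SE 0.038, edgeR adjusted p = 3.33e-04) and PLOD2 (-0.27, 8.24e-04). The higher one, named after its value was seen, was CITED2, which competes with the factors for their coactivators, from 217 ± 16.6 to 312 ± 44.0 CPM (log2 change 0.52, SE 0.074, edgeR adjusted p = 0.00609). VEGFA, the classical angiogenic target, did not pass (-0.32, 0.254).

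The machinery of the response moved in both directions. Of 14 tested genes 3 were lower and 4 were higher with the block, against 6.29% and 7.51% of all tested genes. HIF1A itself, whose product is controlled mainly by degradation, was lower in 4 of 4 pairs, from 195 ± 14.1 to 175 ± 9.26 CPM (SD, n = 4), a log2 change of -0.16 (SE 0.035, edgeR adjusted p = 0.00799). The partner ARNT2 was higher (log2 change 0.53, SE 0.070, edgeR adjusted p = 3.39e-04), as was the coactivator CREBBP (0.27, 0.00146). EPAS1, the paralog of HIF1A, stood higher in 4 of 4 pairs, by 0.48 on the log2 scale. It did not pass in edgeR with the block (adjusted p = 0.1) and passed in DESeq2 with the block (0.0195).

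Downstream and side routes differed little. Of 16 citrate cycle genes and 7 pentose phosphate genes, edgeR and DESeq2 with the block each called 0 in either direction. At an unadjusted p of 0.05 in that edgeR fit, 3 citrate cycle genes were lower and 1 was higher. For the pentose phosphate genes the counts were 3 and 0. Over all 15637 tested genes, 2081 were lower and 2379 were higher at that unadjusted p in the same fit. In these lists the lowest edgeR p values were those of the isocitrate dehydrogenase subunits IDH3B and IDH3G (adjusted p 0.0586 and 0.0699), and of PGLS and TKT (0.057 and 0.075). Among 13 genes of pyruvate entry into mitochondria, 1 was higher and 0 were lower in edgeR with the block, against 7.51% and 6.29% of all tested genes. It was the phosphatase PDP2, which reactivates pyruvate dehydrogenase (log2 change 0.28, SE 0.068, edgeR adjusted p = 0.0141). DESeq2 with the block did not call PDP2 (adjusted p = 0.058). Of 9 tested genes of glycogen and glucose synthesis, 1 was lower and 1 was higher in edgeR with the block. The lower one was glycogen synthase GYS1 (-0.17, 0.0404), which DESeq2 with the block did not call (adjusted p = 0.0929). TXNIP and ARRDC4, which rise with glucose phosphates inside the cell, did not pass (0.26 and 0.28, adjusted p 0.0555 and 0.2).

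**Figure D5:**
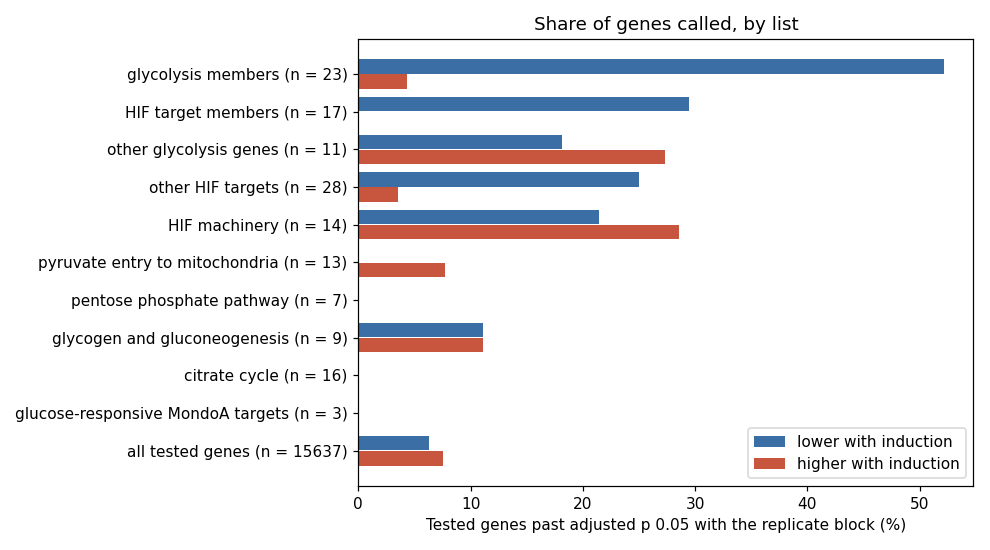
Share of tested genes (in percent) past an adjusted p of 0.05 with the replicate block, blue lower and red higher with induction, for the glycolysis and hypoxia members, the neighbouring lists and all 15637 tested genes. Glycolysis stands at 52.2% lower and the hypoxia members at 29.4%, against 6.29% of all genes, while the citrate cycle and pentose phosphate lists have no bar.

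Near-identical copies bear on some of these genes. Pseudogenes named after a member drew reads equal to 3.29% of those of TPI1, 3.02% for LDHA, 2.67% for ALDOA and 0.671% for GAPDH, which has 62 such copies in the table. Reads that match both a gene and a copy may be missing from either, and how they were handled is not given. Gene pairs on opposite strands that share exons include PFKM with SENP1 (628 bases), SLC16A3 with CSNK1D (482) and ANKRD37 with UFSP2 (909 of 2580).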

How the data were processed

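Total RNA of 8 AB8 libraries was sequenced as single reads of 75 bases with a directional kit, per the labels' protocols. The deposited raw read counts per Ensembl gene were made by the authors with tools that the submitters' processing notes list without order as bcl2fastq, Trimmomatic 0.38, HISAT2 2.1.0, HTSeq 0.11.1 and DESeq2 1.24.0, on build hg38. Which strand setting, overlap rule and annotation release were used is not stated there. The second deposited table is a signal, gene counts divided by 1 factor per library, and served only to check those factors. All 41 members were found by identifier, and 58275 of 58395 genes matched GENCODE 29, which gave positions and exon lengths.

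Counts were tested with edgeR 4.0.16 in R 4.3.3 (quasi-likelihood, robust, TMM scaling, filterByExpr with a minimum count of 10), induced against non-induced, two-sided. Benjamini-Hochberg adjustment covered all 15637 tested genes at 0.05, and the fit was tested on simulated data. The main comparison had no block. Same-numbered libraries correlated at 0.911, 0.704, 0.706 and 0.648 over 11502 genes in their deviations from group means, each best with its own number, so fits with the number as a block stand beside it. What a number means is not labelled. DESeq2 1.42.0, other scalings, filters and left-out libraries were alternatives. Pair ratios used a prior count of 2.

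Members and lists were chosen with earlier results of these data known. All 8 values are given for members that passed with or without the block, for those with a log2 change of 0.5 or more in size, and for textbook members. From other lists up to 3 genes past the threshold with the block, or 2 with the smallest p where none passed, are named, and a few of these are not reported here. The limit of 3 reads covers counting error only.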

Additional observations from a re-analysis of the deposited data

Results flagged for a closer look

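In 12 of 82 group values a single library lay far from the other 3 of its group. The rule flags about 1 in 20 where values are independent and normally distributed. The 82 values come from the same libraries, so the count cannot be read against that rate. The flagged values concerned 11 members, and in 10 of the 12 the library was number 1. The share of such values over all genes was not computed. In non-induced library 1 the low values were 276 CPM for SLC16A3, 6.71 CPM for CA12 and 26.6 CPM for ADM. In induced library 1 the values were 158 CPM for HK1, 328 CPM for PFKP and 25.4 CPM for ADM on the low side. HK2 (52.1 CPM), PFKL (130 CPM), PFKM (108 CPM) and MXI1 (29.1 CPM) stood apart on the high side there. The 2 others were GAPDH in non-induced library 3 (4714 CPM, high) and P4HA1 in non-induced library 4 (69.2 CPM, low). CRB2 was also lowest among induced libraries in library 1, at 1734 CPM, and the part of either in the differences was not tested.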

How the results depend on the processing

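In the unblocked comparison edgeR called 6 of all tested genes, against 240 with DESeq2, 37 with no filter, 543 without both libraries numbered 1 and 2159 with the replicate block. Leaving out 1 library gave 3 to 16, the most without induced library 1. Counts of glycolysis members called lower were 0 under every other scaling, filter and left-out library, 2 with DESeq2, 6 without both libraries numbered 1 and 12 with the block. For the hypoxia members they were 0, 1, 6 and 5 in that order, and the block gave 1 glycolysis member higher. The median log2 change lay between -0.19 and -0.13 for glycolysis (-0.19 without non-induced library 1) and between -0.31 and -0.15 for the hypoxia members under all alternatives without a block.

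With the replicate block, genes called numbered 1107 with DESeq2, and 909 to 1969 with 1 pair left out, the fewest without pair 4 and 1254 without pair 3. The 12 glycolysis members called lower stayed 12 in number under the 7 other tools, scalings, filters and dispersions, and were 9 to 12 without a pair. The count called higher was 0 with DESeq2, RLE scaling or no robust estimation, and 0 to 1 without a pair. Of the hypoxia members 3 were lower with library totals or the filter at 10 CPM, 9 with no filter, and 1 to 10 without a pair. The cause was not tested. ACGTG alone occurred in 44.4% of the members' windows, against 18.7% of all.

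Directions reversed for 11 members, none of which had passed. With 1 library left out and no block, log2 changes ranged as follows: SLC2A1 -0.19 to 0.013, HK2 -0.21 to 0.15, PFKM -0.11 to 0.11, ALDOA -0.11 to 0.11, LDHB -0.090 to 0.035, ADM -0.21 to 0.41, ANKRD37 -0.071 to 0.026, P4HA1 -0.072 to 0.051, MXI1 -0.29 to 0.17 and BHLHE40 -0.16 to 0.013. With 1 pair left out of the blocked fit the ranges were SLC2A1 -0.14 to 0.014, HK2 -0.074 to 0.073, PFKM -0.025 to 0.0058, ALDOA -0.047 to 0.016, ALDOC -0.087 to 0.21, ANKRD37 -0.090 to 0.035 and P4HA1 -0.053 to 0.044. Single values that reversed inside these ranges were -0.0070 for HK2 without pair 2, 0.0056 for ALDOA without pair 1, 0.033 for ANKRD37 without pair 1 and -0.021 for P4HA1 without pair 4. Without a block, P4HA1 was -0.0024 with upper-quartile scaling and -0.0019 with no filter, and PFKM was 0.0022 with library totals. Without both libraries numbered 1, HK2 was -0.078, ALDOA 0.0048, ANKRD37 0.034 and P4HA1 -0.056. Under the replicate block HK2 was -0.0035 with DESeq2, -0.00065 with RLE scaling, -0.0063 with upper-quartile scaling and -0.0052 with no filter. Under the same block P4HA1 was -0.0052 with upper-quartile scaling and -0.0031 with no filter, and PFKM was 0.0027 with library totals. Members near or under 1 CPM (CA9, EGLN3) are limited by depth.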
